A study of Mus musculus with 24 samples.

Results

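The genes described here mark the epithelium of the choroid plexus, and they were read in RNA sequencing of the mouse striatum. The set has 9 genes, chosen by symbol: Ttr, Enpp2, Kl, Clic6, Folr1, Otx2, Aqp1, Slc4a5 and F5. All 9 were found among the 54532 genes of the read-count table, once each, and all 9 passed the filter on low counts that left 19667 genes for testing. The study had 24 libraries in 4 genotypes of 6 animals each, all of strain C57BL/6. The genotypes were WT, Tyrobp-KO (called TyrobpKO below), Q175 heterozygote (Q175) and Q175 heterozygote with Tyrobp-KO (Q175_TyrobpKO). In each genotype, replicates 1 to 3 were male and 4 to 6 female, numbered here only to name a library. Q175 is a mouse Htt allele into which an expanded CAG repeat was knocked in, and its carriers model Huntington's disease. The product of Tyrobp, DAP12, is a signalling adaptor that microglia use. The labels give neither the age of the animals nor how their numbers relate to litters, so p-values measure the spread between these libraries.

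The choroid plexus is a sheet of secretory epithelium over leaky capillaries, and it hangs in the brain's ventricles. Its cells make most of the cerebrospinal fluid, by moving ions and water, and release carrier and signalling proteins into it. It is not part of the striatum, but the lateral ventricle, which holds some of it, borders the striatum. The labels say that the striatum of a single hemisphere was removed and frozen. They do not say whether the plexus was cleared from it.

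The members fall into 3 kinds by role. Ttr (transthyretin, a carrier of thyroid hormone and retinol-binding protein), Enpp2 (autotaxin, which makes lysophosphatidic acid), Kl (klotho, a co-receptor for FGF23 with a shed form) and F5 (coagulation factor V) give secreted or shed proteins. Aqp1 (a water channel), Slc4a5 (a sodium bicarbonate cotransporter), Clic6 (of the chloride intracellular channel family) and Folr1 (folate receptor alpha) move water, ions or folate, or are named for it. Otx2 is a homeodomain transcription factor that the developing choroid plexus requires.

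Promoter sequence is shown because the members moved together between libraries (below) and 1 of them is a transcription factor. The copy of RefSeq promoters used here, on GRCm38.p6, gave 5 of the 9 members: F5, Kl, Aqp1, Slc4a5 and Otx2, the last with 4 starts. The others were not searched. The 250 bases before each start were searched on both strands for TAATCC, the core site read by OTX2 and other bicoid-type homeodomains. It was found for 1 of the 5 members, Otx2 itself, 211 bases before a start. It was held by 7.21% of all genes there, and by 6.25% of all 32851 promoters. A match is a description of letters and not a site shown to be bound. The stretch around it lies at chr14:48665303-48665332 on the minus strand, in bases that annotated exons cover. Capitals mark the match (GGATTA, as read on this strand):
Otx2: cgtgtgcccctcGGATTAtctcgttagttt
The windows of Kl (chr5:150952357-150952606, plus strand), Aqp1 (chr6:55336049-55336298, plus strand) and F5 (chr1:164151585-164151834, plus strand) held no match. They are shown whole, as they overlapped no annotated exon:
Kl: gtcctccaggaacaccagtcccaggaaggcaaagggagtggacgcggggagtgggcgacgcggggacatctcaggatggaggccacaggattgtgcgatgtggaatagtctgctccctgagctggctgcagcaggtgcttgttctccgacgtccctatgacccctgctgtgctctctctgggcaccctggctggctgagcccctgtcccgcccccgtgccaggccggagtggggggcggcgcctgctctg
Aqp1: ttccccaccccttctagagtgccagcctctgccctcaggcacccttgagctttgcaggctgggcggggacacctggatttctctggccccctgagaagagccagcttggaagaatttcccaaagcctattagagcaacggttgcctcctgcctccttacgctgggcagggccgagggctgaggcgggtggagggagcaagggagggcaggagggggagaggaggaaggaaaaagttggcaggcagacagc
F5: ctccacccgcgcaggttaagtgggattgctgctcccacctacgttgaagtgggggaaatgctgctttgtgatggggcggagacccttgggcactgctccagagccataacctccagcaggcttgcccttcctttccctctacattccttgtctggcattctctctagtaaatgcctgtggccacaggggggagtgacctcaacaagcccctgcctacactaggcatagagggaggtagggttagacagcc
GC content was 66.8% in the window of Kl, 62% in that of Aqp1 and 57.2% in that of F5.

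Values are CPM (library-scaled read counts, with TMM), and "called" means an adjusted p under 0.05 from edgeR's quasi-likelihood test across all genes tested. Total counts were 25.5 to 34.6 M per library (M, megacounts). Tyrobp, whose deletion the labels give, was 6.56 to 9.89 CPM in WT and 5.69 to 11.8 CPM in Q175, against 0.214 to 0.448 CPM in TyrobpKO and 0.218 to 0.323 CPM in Q175_TyrobpKO. Htt was 209 to 233 CPM in WT, 188 to 236 CPM in TyrobpKO and 137 to 177 CPM in Q175, and at most 178 CPM in Q175_TyrobpKO. Markers of striatal projection neurons were present in every library, at a summed 4582 to 12716 CPM over 12 genes.

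The library Q175 replicate 3, from a male, stood apart before any comparison. It held the highest level of all 9 members among the 24 libraries. Its Ttr level of 3793 CPM was 7.35-fold the next highest library and 132.5-fold the WT median. The main edgeR comparisons of genotype and sex and the fits on Ttr are therefore given again without it. Other results include it unless stated. Among them are the spread of the members, their correlations within Q175 and between pairs, and the calls of a second tool, DESeq2.

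Ttr had the widest range of the 9 genes. It lies on chromosome 18 (20665250 to 20674324, as the table gives it, plus strand). In CPM its lowest, median and highest values were 18.3, 28.6 and 55.2 in WT and 11.3, 30.9 and 112 in TyrobpKO. They were 22.3, 72.2 and 3793 in Q175 and 21.7, 103 and 516 in Q175_TyrobpKO. The 5 highest libraries were all carriers of the Q175 allele: Q175 replicate 3, Q175_TyrobpKO replicates 6 and 4 (516 and 512), Q175 replicate 5 (442) and Q175_TyrobpKO replicate 2 (177). The sixth was TyrobpKO replicate 3 at 112. The other 7 carriers lay between 21.7 and 83.0 CPM, within the range of the 12 libraries without the allele, so the genotypes overlapped.

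Enpp2, the other abundant member (chr15:54838901-54952892, minus strand), was less uneven. Its lowest, median and highest levels were 296, 342 and 395 CPM in WT and 292, 389 and 452 CPM in TyrobpKO. In Q175 they were 304, 380 and 1917 CPM, and in Q175_TyrobpKO 297, 345 and 581 CPM. Oligodendrocytes also express Enpp2, and it was at 292 CPM or more in all 24 libraries. Only 4 libraries rose above the highest library without the Q175 allele, namely Q175 replicates 3 and 5 and Q175_TyrobpKO replicates 4 and 6.

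Kl (chr5:150952607-150993817, plus strand) and F5 (chr1:164151838-164220277, plus strand) had low levels outside a few libraries. The lowest, median and highest levels of Kl were 3.09, 3.75 and 5.25 CPM in WT, 0.991, 2.93 and 5.84 CPM in TyrobpKO, 2.54, 7.12 and 153 CPM in Q175 and 3.30, 6.94 and 28.8 CPM in Q175_TyrobpKO. Kl exceeded the highest library without the allele in 7 of 12 carriers. F5 was at 1.09, 1.43 and 1.82 CPM in WT, 0.661, 0.928 and 3.02 CPM in TyrobpKO, 0.558, 2.01 and 74.3 CPM in Q175 and 1.16, 2.52 and 13.5 CPM in Q175_TyrobpKO. F5 did so in 4 of 12 carriers, and for both genes the genotypes overlapped.

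Among the transport genes, Clic6 (chr16:92485736-92541243, plus strand) was the most abundant. Its lowest, median and highest levels were 10.04, 13.5 and 16.5 CPM in WT, 7.85, 10.01 and 12.6 CPM in TyrobpKO, 10.7, 15.5 and 92.2 CPM in Q175 and 9.86, 14.5 and 29.7 CPM in Q175_TyrobpKO. The water channel gene Aqp1 (chr6:55336432-55348555, plus strand) was at 0.114, 0.295 and 0.904 CPM in WT, 0, 0.362 and 0.856 CPM in TyrobpKO, 0.139, 1.10 and 20.5 CPM in Q175 and 0.194, 0.977 and 2.80 CPM in Q175_TyrobpKO. The library without an Aqp1 read was TyrobpKO replicate 5, where a count of 0 allows up to 0.110 CPM (3 counts, covering counting error only). Clic6 exceeded the highest library without the Q175 allele in 4 of 12 carriers and Aqp1 in 7 of 12.

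Slc4a5 (chr6:83219828-83304945, plus strand) had the lowest median level per length of the members. Its lowest, median and highest levels were 0.178, 0.351 and 0.565 CPM in WT, 0.178, 0.345 and 0.514 CPM in TyrobpKO, 0.426, 0.527 and 30.3 CPM in Q175 and 0.0726, 1.09 and 5.30 CPM in Q175_TyrobpKO. Slc4a5 therefore rested on 5 to 18 reads in a WT library and 910 in Q175 replicate 3. Folr1 (chr7:101858331-101870788, minus strand) was at 0.377, 0.644 and 0.974 CPM in WT, 0.147, 0.549 and 1.53 CPM in TyrobpKO, 0.105, 1.60 and 24.9 CPM in Q175 and 0.517, 0.970 and 3.995 CPM in Q175_TyrobpKO. Folr1 overlaps Anapc15 on the other strand, which had 4229 reads over all libraries against 1464 for Folr1, and the use of strand in counting is not given in the sources used here, so Folr1 is uncertain.

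Otx2, the transcription factor (chr14:48657677-48673819, minus strand), shared its 3 highest libraries with Ttr, in the same order. Its lowest, median and highest levels were 0.604, 0.810 and 1.22 CPM in WT, 0.214, 0.783 and 1.39 CPM in TyrobpKO, 0.349, 1.69 and 20.5 CPM in Q175 and 0.450, 1.12 and 4.25 CPM in Q175_TyrobpKO. In 6 of 12 carriers Otx2 exceeded the highest library without the allele. As with the other members, its genotypes overlapped, since Q175 replicate 4 was below all 6 WT libraries.

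**Figure D1:**
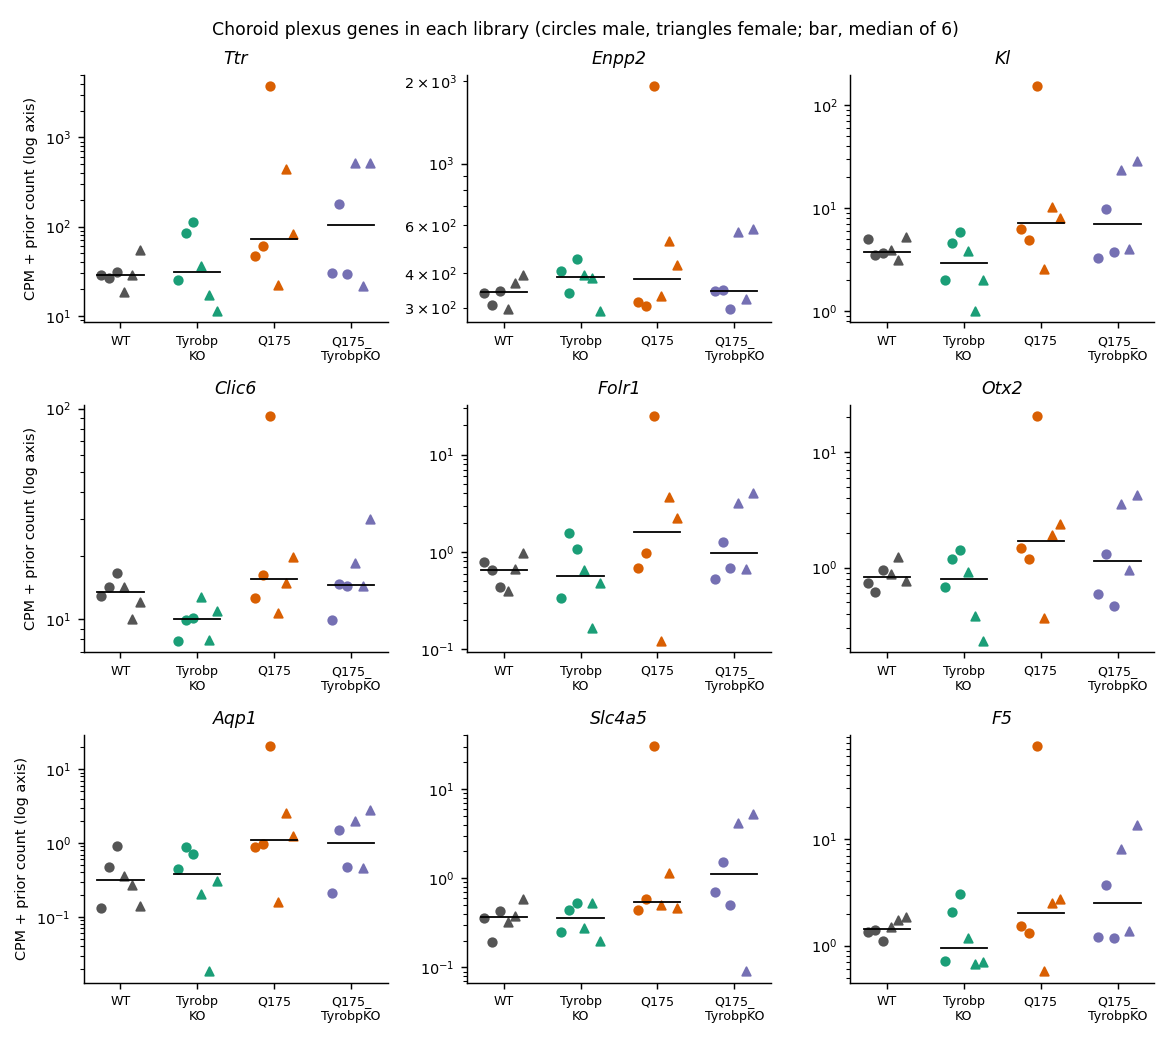
Level of each of the 9 choroid plexus genes in each of the 24 libraries, in CPM plus a prior count on a log axis, by genotype. Circles are male libraries, triangles female, and the bar is the median of 6. Q175 replicate 3 is the top point in all 9 panels (Ttr 3793 CPM, against 18.3 to 55.2 CPM in WT).

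Q175_TyrobpKO replicates 4 and 6 were among the 5 highest libraries for all 9 members, Q175 replicate 5 for 7 and Q175_TyrobpKO replicate 2 for 5. Per length of the gene model, the median over 24 libraries was highest for Enpp2 (59.7 RPKM, the CPM per kilobase), then Ttr (27.5), Clic6 (3.45), Kl (0.461), Folr1 (0.290), Otx2 (0.223), F5 (0.192), Aqp1 (0.174) and Slc4a5 (0.0807). In Q175_TyrobpKO the median of Ttr (84.9 RPKM) was above that of Enpp2 (59.7), but both ranges overlapped. From Kl to Slc4a5 the ranges of neighbours overlapped as well, so their order is not separated from their spread.

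With Q175 replicate 3 included, the highest library for all 9 members, the members were among the most uneven genes of the data. The coefficient of variation left after genotype and sex, as edgeR estimates it, was 16.2% as a single value common to all genes. It was 117% for Ttr, above 99.9% of the genes tested, and 113% for Slc4a5, 106% for F5, 103% for Aqp1, 98.4% for Folr1, 93.9% for Kl and 86.5% for Otx2. Clic6 (49.8%) and Enpp2 (43.3%) were the least uneven. By the ratio of the highest library to the median, Ttr ranked 1 of 19667 genes. That highest library was Q175 replicate 3, and neither measure was computed without it.

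Q175 against WT asks what the Q175 allele does where Tyrobp is present. Ttr and Aqp1 were called higher in Q175. In the 12 libraries without the allele alone, Aqp1 did not pass the low-count filter. Its place among the genes tested therefore rested on carriers. The log2 fold change of Ttr was 4.30 ± 1.30 (SE; adjusted p = 0.0408) and that of Aqp1 was 3.38 ± 0.99 (adjusted p = 0.0336), with edgeR and 6 libraries per group. These are 2 of 9 members, where 4.15% of all genes were called higher and 9.63% were called in either direction. The other 7 had positive log2 fold changes that were not called: 3.71 ± 1.22 for Slc4a5 (adjusted p = 0.0629), 2.95 ± 0.95 for Folr1 (0.0575), 2.95 ± 1.12 for F5 (0.110), 2.73 ± 0.94 for Kl (0.0757), 2.32 ± 0.83 for Otx2 (0.0865), 1.02 ± 0.44 for Clic6 (0.161) and 0.88 ± 0.37 for Enpp2 (0.162). The median over the 9 members was 2.95, against 0.0073 over all genes tested.

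Without Q175 replicate 3, none of the 9 was called in that comparison with edgeR (1 had an unadjusted p under 0.05), where 8.21% of all genes were. Ttr was then at 1.88 ± 0.93 (adjusted p = 0.250), Aqp1 at 1.69 ± 0.77 (0.202), and F5 at 0.17 ± 0.63 (0.921). The median of the 9 was 0.68, and all 9 stayed positive. Both calls were also lost on leaving out Q175 replicate 5 or WT replicate 1, 2, 4 or 5. With DESeq2, 6 of the 9 were called in all 24 libraries, where that tool called 11.7% of all genes, and 1 had no adjusted p. All 6 Q175 animals had a prefix of the animal number that only WT replicate 3 shared, so what it marks and the allele cannot be told apart here.

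Markers of other cells moved in the same comparison. Of the 12 genes of striatal projection neurons, 11 were called lower in Q175 than in WT, with a median log2 fold change of -0.77. Their summed level was 5270 to 7324 CPM in Q175 and 8044 to 12716 CPM in WT, ranges that did not overlap. Scn4b, a sodium channel subunit gene, was at -1.33 ± 0.14 and Penk, the proenkephalin gene, at -1.12 ± 0.16, while Tac1, the tachykinin precursor gene, was not called (-0.033 ± 0.14). On leaving out Q175 replicate 3, 10 of the 12 were called lower, with a median of -0.76. In Q175_TyrobpKO against TyrobpKO 7 of the 12 were called lower, with a median of -0.49, and 6 without that library. Of the 12 ependymal genes, 1 was called higher in Q175 than in WT, the cilium gene Tekt1 (1.05 ± 0.32, adjusted p = 0.0344), and it was at 0.66 ± 0.28 without Q175 replicate 3 (adjusted p = 0.162). The part of these markers in the members' values was not tested. These 3 genes and Tekt1 were named after their values were seen.

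Ttr was also tested alone, by permuting the genotype labels. The mean log2 CPM was 7.17 ± 2.72 (SD, n = 6) in Q175 and 4.89 ± 0.51 in WT, and an exact two-sided permutation test gave p = 0.0325, or 0.130 adjusted over the 4 genotype contrasts. The smallest p that 6 against 6 allows is 0.00216. The same exact test gave p = 0.167 for Q175_TyrobpKO against TyrobpKO, 0.695 for TyrobpKO against WT and 0.714 for Q175_TyrobpKO against Q175. With 5 Q175 libraries, replicate 3 left out, the exact test gave p = 0.0649 for Q175 (mean 6.23 ± 1.59, n = 5) against WT and 0.727 for Q175_TyrobpKO against Q175.

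Q175_TyrobpKO against TyrobpKO gives the same allele where Tyrobp is deleted, and all 12 animals shared a prefix of the animal number. None of the 9 members was called with edgeR, where 5.86% of all genes were, although 2 had an unadjusted p under 0.05. DESeq2 also called 0 members, and 7.7% of all genes. All 9 log2 fold changes were positive, with a median of 1.94. They were 2.51 ± 1.25 for Ttr (adjusted p = 0.297), 2.66 ± 1.21 for Slc4a5 (0.238), 2.11 ± 0.95 for Kl (0.235) and 0.13 ± 0.37 for Enpp2 (0.903). Q175 replicate 3 is in neither group but enters the shared estimate of the spread and the sex term. Leaving it out brought 2 calls, where 6.05% of all genes were called: Clic6 at 0.76 ± 0.20 (adjusted p = 0.0298) and Slc4a5 at 2.34 ± 0.60 (adjusted p = 0.0198).

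Both comparisons can be averaged, a contrast added after the data were seen. In it, 8 of the 9 members were called higher in carriers of the Q175 allele (all but Enpp2), where 8.85% of all genes were called higher and 18% in either direction. Ttr was at 3.40 ± 0.85 (adjusted p = 0.00776) and Slc4a5 at 3.19 ± 0.83 (adjusted p = 0.0105). Without Q175 replicate 3, 4 were called where 16.8% of all genes were called in either direction. These were Slc4a5 (1.51 ± 0.44, adjusted p = 0.0201), Aqp1 (1.65 ± 0.55, 0.0421), Clic6 (0.44 ± 0.15, 0.0440) and Kl (1.20 ± 0.40, 0.0475), while Ttr was at 1.85 ± 0.69 (0.0758). Leaving out Q175_TyrobpKO replicate 6 also left 4 calls. The other 2 high libraries of that genotype, replicates 4 and 2, and Q175 replicate 5 are carriers too, so a genotype effect and plexus tissue taken with single dissections cannot be told apart from this contrast.

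Deletion of Tyrobp was compared in both backgrounds. In TyrobpKO against WT none of the 9 members was called with edgeR or DESeq2, and none had an unadjusted p under 0.05; 0.117% of all genes were called by edgeR and 0.142% by DESeq2. Their log2 fold changes ran from -0.42 to 0.42 with a median of -0.089, and Ttr was at 0.42 ± 1.16 (adjusted p = 0.950). Leaving out Q175 replicate 3, which enters only the shared spread and the sex term, gave 0.78 for Ttr and put the median at 0.0093. Of the 9, 1 then had an unadjusted p under 0.05 with edgeR and was not called. In Q175_TyrobpKO against Q175 none was called by either tool or at an unadjusted p under 0.05, where 0.158% of all genes were called by edgeR and 0.264% by DESeq2. All 9 were negative there, with a median of -1.13 and Ttr at -1.38 ± 1.26 (adjusted p = 0.875). Without Q175 replicate 3 all 9 were positive, with a median of 0.30 and Ttr at 0.72 ± 0.89 (adjusted p = 0.956), so the direction rested on that library. In that fit 2 of the 9 had an unadjusted p under 0.05 with edgeR, and neither was called.

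No member was called for the interaction of the alleles, where 0% of all genes were called by edgeR (707 genes had an unadjusted p under 0.05, none of them a member, and DESeq2 called 2 genes or 0.0102%, no member). The interaction of Ttr was -1.80 ± 1.81 on the log2 scale (adjusted p = 0.999), and all 9 were negative with a median of -0.96. When Q175 replicate 3 was left out it was -0.059 for Ttr (adjusted p = 0.998), 6 members were positive and 3 negative, and the median was 0.36, so its size and direction rested on that library. In that fit 1 member had an unadjusted p under 0.05 with edgeR and was not called. Between the sexes, females against males, 0 members were called by edgeR or DESeq2, and 0 at an unadjusted p under 0.05, where 0.0814% of all genes were by edgeR and 0.112% by DESeq2. Ttr was at -0.60 ± 0.93 (adjusted p = 0.999) and at 0.61 ± 0.70 without Q175 replicate 3, a male library.

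**Figure D2:**
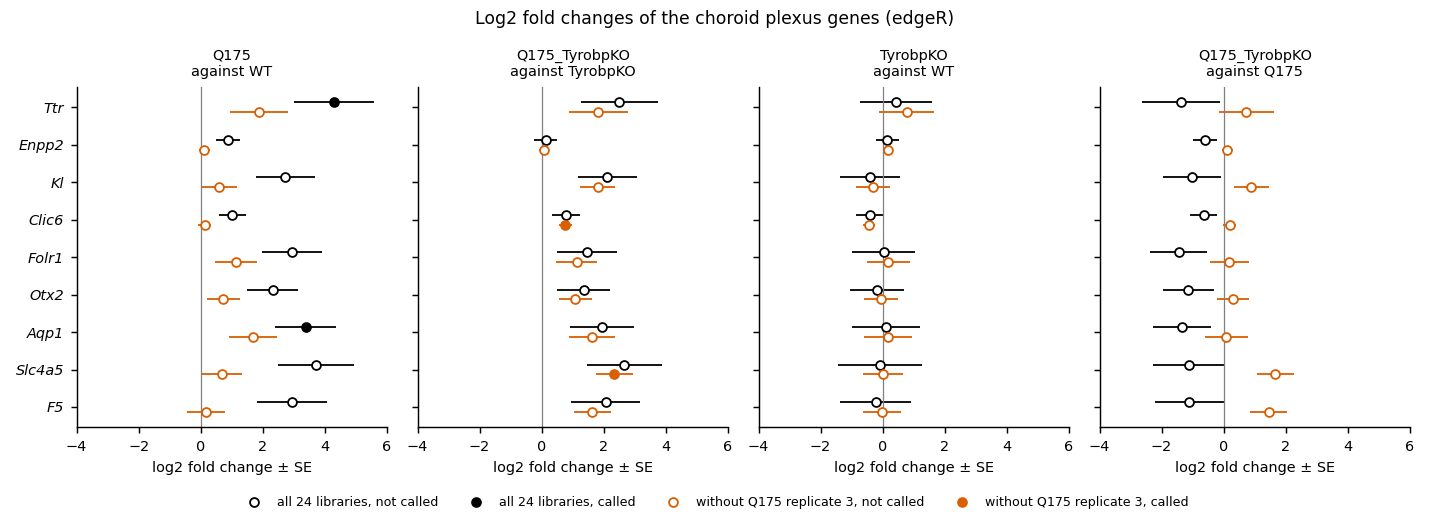
Log2 fold change of each member with its SE in 4 genotype contrasts, from edgeR, in all 24 libraries (black) and without Q175 replicate 3 (orange); filled points are called at an adjusted p under 0.05. In Q175 against WT the Ttr estimate moves from 4.30 to 1.88, and in Q175_TyrobpKO against Q175 from -1.38 to 0.72.

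The members rose and fell together between libraries. Over the 24 libraries, the Pearson correlation of log2 CPM with Ttr was 0.940 for Kl (Spearman 0.865), 0.932 for F5 (0.817), 0.919 for Folr1 (0.884), 0.914 for Otx2 (0.840) and 0.906 for Slc4a5 (0.747). It was 0.859 for Enpp2 (0.664), 0.830 for Aqp1 (0.770) and 0.779 for Clic6 (0.554). A permutation test of the 8 Pearson correlations gave p = 1e-05, the smallest that 100000 resamples can give, except for Clic6 at 9e-05, with the same values after Benjamini-Hochberg adjustment over the 8. The rank correlations had adjusted permutation p-values of 2e-05 to 0.00589, the last for Clic6. Without the 2 libraries farthest from the median of Ttr (Q175 replicate 3 and Q175_TyrobpKO replicate 6), r was 0.701 to 0.871 for 7 genes and 0.439 for Clic6. Within the 6 WT libraries, where Ttr varied least, r was negative for Clic6 (-0.287), Otx2 (-0.107) and Aqp1 (-0.405). Within the 6 TyrobpKO libraries it was 0.195 to 0.958, within Q175 0.885 to 0.962 and within Q175_TyrobpKO 0.770 to 0.982. Over the 36 pairs of members r was 0.650 to 0.967, with a median of 0.855. The values within Q175 and over the pairs include Q175 replicate 3 and were not computed without it. Its Ttr level was 3793 CPM, with the next Q175 library at 442.

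**Figure D3:**
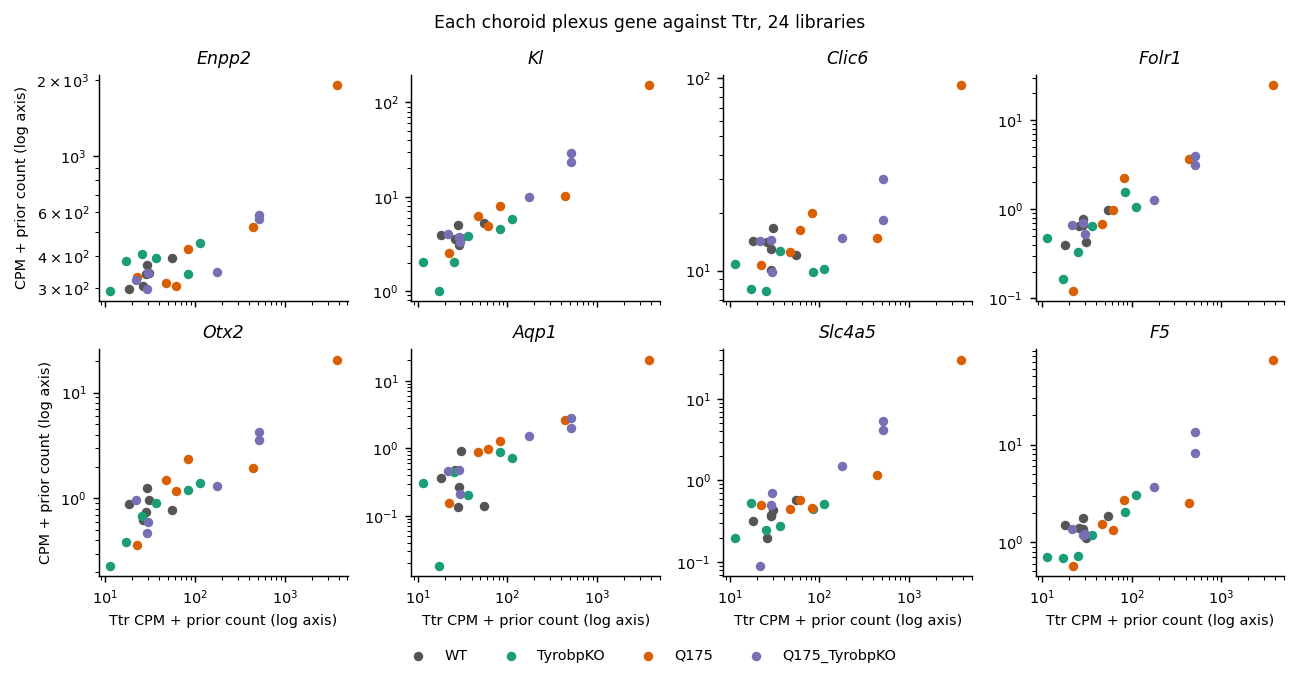
Level of each of the other 8 members against Ttr in the 24 libraries, both in CPM plus a prior count on log axes, coloured by genotype. Q175 replicate 3 is the point at the upper right of each panel, and Kl (r = 0.940) follows Ttr more closely than Clic6 (r = 0.779).

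A model with genotype, sex and log2 CPM of Ttr asked which genes followed Ttr between libraries of the same genotype and sex. All 8 other members were called with a positive slope, where 0.559% of all genes were called. The slopes, in log2 units per doubling of Ttr, were 0.84 ± 0.07 (SE) for Slc4a5, 0.81 ± 0.05 for F5, 0.73 ± 0.06 for Folr1, 0.70 ± 0.05 for Kl, 0.70 ± 0.08 for Aqp1 and 0.61 ± 0.05 for Otx2. They were 0.29 ± 0.05 for Clic6 and 0.28 ± 0.03 for Enpp2, and the largest adjusted p was 0.00402, for Clic6. The slope of every member was thus below 1, at which a gene would change in proportion to Ttr.

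Without Q175 replicate 3, 7 of the 8 members were still called, all but Clic6, where 0.0955% of all genes were; the slope of F5 was 0.63 ± 0.06 and that of Kl 0.57 ± 0.06. In the 12 carriers alone, 7 of 8 were called, again all but Clic6, where 0.294% of all genes besides Ttr were. In the 12 libraries without the allele Aqp1 did not pass the filter. None of the 7 members tested was called by edgeR there, where 0% of all genes besides Ttr were. Of the 7, 5 had an unadjusted p under 0.05. The largest Ttr value there was 112 CPM. Their slopes were 0.71 for Folr1, 0.69 for F5, 0.61 for Otx2, 0.56 for Kl, 0.41 for Slc4a5, 0.13 for Enpp2 and -0.000503 for Clic6.

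The excess of each member over the WT median was set against the excess of Ttr in the 5 libraries with the most Ttr. For each 1000 CPM of excess Ttr, Q175 replicate 3 had an excess of 418 CPM of Enpp2, 39.8 of Kl, 20.9 of Clic6, 19.3 of F5, 7.95 of Slc4a5, 6.45 of Folr1, 5.38 of Aqp1 and 5.23 of Otx2. Over the 5 libraries the ratio varied least for Folr1 (4.18 to 7.27), Aqp1 (3.52 to 8.14), Otx2 (2.67 to 7.06) and Kl (15.8 to 51.4). Its range was wider for Slc4a5 (1.91 to 10.2), F5 (2.60 to 24.9), Clic6 (3.08 to 33.3) and Enpp2 (29.4 to 491). The lowest ratio of Enpp2 was that of Q175_TyrobpKO replicate 2. Its Enpp2 excess of 4.37 CPM was small beside the SD of 37.4 CPM in WT. In the other 4 libraries the ratio of Enpp2 was 418 to 491. The lowest ratio of Clic6 rested on an excess of 1.27 CPM, against an SD of 2.22 CPM in WT. For Kl, Clic6, Otx2, Slc4a5 and F5 the lowest ratio was that of Q175 replicate 5. The ratios of Q175 replicate 3 lay inside the range of the other 4 libraries for all 8 genes.

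**Figure D4:**
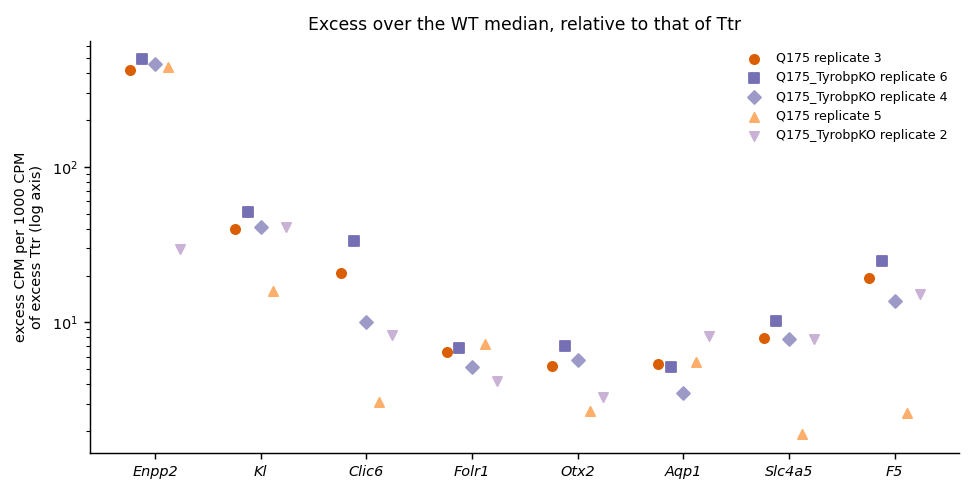
Excess of each member over its WT median per 1000 CPM of excess Ttr, on a log axis, in the 5 libraries with the highest Ttr. The points of Folr1 lie between 4.18 and 7.27, while those of Enpp2 run from 29.4 to 491, with Q175_TyrobpKO replicate 2 lowest. The Enpp2 excess of that library was 4.37 CPM, against an SD of 37.4 CPM in WT. The other Enpp2 points lie between 418 and 491.

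Other genes known from the choroid plexus epithelium were read from a separate list of 20, of which 19 were tested and Lmx1a was not. With the slope on Ttr, 18 of 19 were called and all 18 were positive. Cldn2, a claudin of leaky epithelia, had a slope of 0.92 ± 0.08, Tmem72 0.83 ± 0.06, the potassium channel gene Kcnj13 0.83 ± 0.09, the prolactin receptor gene Prlr 0.80 ± 0.06, the channel subunit gene Kcne2 0.78 ± 0.06 and Sostdc1, a secreted BMP and Wnt modulator, 0.75 ± 0.07. Abca4 (0.43 ± 0.05) and Slc29a4, a monoamine transporter gene (0.36 ± 0.04), had lower slopes. In Q175 against WT, Sostdc1 (3.47 ± 1.05, adjusted p = 0.0414) and Tmem72 (3.69 ± 1.16, adjusted p = 0.0495) were called higher and Car12 was called lower, with a median of 1.62 over the 19. With that library (Q175 replicate 3) left out, Sostdc1 was at 1.01 ± 0.60 (adjusted p = 0.352) and Tmem72 at 0.78 ± 0.65 (0.546), with a median of 0.12, and 8 of 19 had a called slope. In Q175_TyrobpKO against TyrobpKO none of the 19 was called with edgeR, 2 had an unadjusted p under 0.05 and the median was 0.79. With it left out, Tmem72 was called higher there (2.30 ± 0.62, adjusted p = 0.0308) and Car12 lower (-0.68 ± 0.17, adjusted p = 0.0201).

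Car12, a membrane-bound carbonic anhydrase gene, was the exception in that list. It was at 60.7, 75.3 and 95.4 CPM (lowest, median, highest) in WT, 43.2, 61.7 and 80.7 in TyrobpKO, 26.7, 35.5 and 84.6 in Q175 and 21.9, 38.1 and 52.4 in Q175_TyrobpKO. Of 12 carriers of the Q175 allele, 10 lay below the lowest library without it, and the highest carrier was Q175 replicate 3. Its log2 fold change in Q175 against WT was -0.82 ± 0.25 (adjusted p = 0.0443), and -1.17 ± 0.18 without that library (adjusted p = 0.000305). Its slope on Ttr was 0.11 ± 0.04 (adjusted p = 0.449).

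Markers of other cell types were read in the same way. In Q175 replicate 3 the summed level was the highest of the 24 libraries for the other choroid plexus genes (499 CPM, against 83.9 to 115 in WT), for 12 ependymal genes (97.9 against 32.1 to 57.3) and for 10 genes of leptomeningeal and perivascular fibroblasts (86.2 against 67.9 to 74.3). Single genes made up much of some sums. Car12, of the other choroid plexus list, was at 60.7 to 95.4 CPM in WT. Pdgfra, of the fibroblast list, was at 48.8 to 56.3 CPM in WT and 59.9 CPM in Q175 replicate 3. The 9 members summed to 336 to 472 CPM in WT and to 6126 CPM in Q175 replicate 3. Its sum was the lowest of the 24 for 8 genes of cortical excitatory neurons (90.8 CPM, against 128 to 748 in WT), rank 20 for 12 genes of striatal projection neurons (5893), rank 21 for 10 myelin genes (9237) and for 6 blood genes (1.70), and rank 4 for 8 genes of thalamus and septum (80.2). No listed gene was at 0 reads in that library except 2 of the blood list. Fewer cells of a type and less RNA per cell cannot be told apart in such bulk samples.

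With the slope on Ttr, the ependymal list had 0 of 12 genes called by edgeR, 7 at an unadjusted p under 0.05 and all 12 positive, with a median of 0.18. Foxj1, the regulator of motile cilia, had 0.13 ± 0.04 and Ak7 0.20 ± 0.08. When Q175 replicate 3 was left out, none of the 12 had an unadjusted p under 0.05, and the median was 0.089. Of the fibroblast genes, 1 of 10 was called, the collagen gene Col1a2 (0.15 ± 0.03, adjusted p = 0.0237), and Pdgfra (0.024 ± 0.012) and Dcn (0.040 ± 0.034) were not. Without that library edgeR called none of the 10, and 1 had an unadjusted p under 0.05. None was called, and none had an unadjusted p under 0.05, among 10 myelin genes (Mbp -0.0002 ± 0.026), 12 of striatal projection neurons (Pde10a -0.024 ± 0.032, Adcy5 -0.016 ± 0.028), 8 of cortical excitatory neurons (Slc17a7 -0.21 ± 0.21, Lamp5 -0.0059 ± 0.021), 8 of thalamus and septum (Zic1 0.028 ± 0.037, Ntng1 -0.0055 ± 0.026) and the 3 blood genes tested (Hbb-bs -0.087 ± 0.14, Hba-a1 -0.060 ± 0.15).

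**Figure D5:**
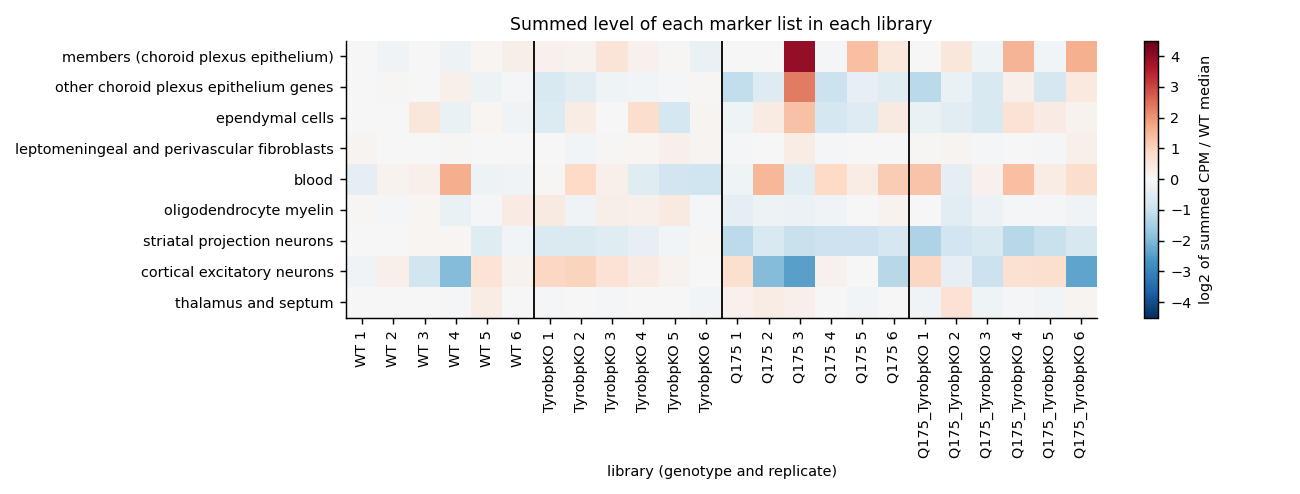
Log2 of the summed CPM of each marker list over its WT median, for the 24 libraries in columns; red is above and blue below the WT median. The column of Q175 replicate 3 is the darkest red for the 9 members (6126 CPM), the other choroid plexus genes (499 CPM) and the ependymal genes (97.9 CPM).

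Over all genes, 109 besides Ttr followed it with a positive slope. None was called with a negative slope by edgeR, although 559 such genes had an unadjusted p under 0.05, and the negative gene of smallest p, Lpcat4, had -0.057 ± 0.014 (adjusted p = 0.0587). The 109 were the 8 members, 18 other choroid plexus genes, Col1a2 and 82 genes in no list. The 10 non-members of smallest p were 1500015O10Rik (0.59 ± 0.04), Prlr, Kcne2, Tmem72, Sostdc1, Cldn2, the collagen gene Col8a1 (0.62 ± 0.06), Kcnj13, the glucose transporter gene Slc2a12 (0.42 ± 0.05) and Abca4. Their Pearson correlations with Ttr over the 24 libraries ran from 0.837 for Slc2a12 to 0.946 for 1500015O10Rik. Without Q175 replicate 3, 18 genes were called, all 18 among the 109. They were 7 members, 8 other choroid plexus genes, 1500015O10Rik, Col8a1 and Slc2a12.

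Counts over all genes differed with Ttr in the model. In Q175 against WT the calls went from 1893 to 1096, of which 1044 were shared. In Q175_TyrobpKO against TyrobpKO they went from 1153 to 906, with 846 shared, and in TyrobpKO against WT they stayed at 23, with 22 shared. Among the 23 libraries left without Q175 replicate 3 they went from 1633 to 1125 in Q175 against WT and from 1204 to 819 in Q175_TyrobpKO against TyrobpKO. Among the 8 other members none was called by edgeR in Q175 against WT with Ttr in the model, and none had an unadjusted p under 0.05. The log2 fold changes ran from -0.70 ± 0.36 for F5 to 0.51 ± 0.49 for Aqp1. Since Ttr itself differed between these groups, that fit does not separate the allele from Ttr.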

How the data were processed

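RNA of 24 striata (4 genotypes, 6 libraries each) was sequenced. The authors deposited raw counts: reads per gene, as integers with no normalization. The submitters' processing notes name STAR, featureCounts and DESeq2 without versions, and a build, GRCh38, that is human. The deposited coordinates are mouse: 54409 of 54532 gene identifiers were in GENCODE M21 (GRCm38), 98.3% with the same start and end. Use of strand is not given in the sources used here.

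Counts were tested with edgeR 4.0.16 in R 4.3.3: TMM, filterByExpr on genotype (minimum count 10), a robust quasi-likelihood fit with genotype means and sex over 24 libraries, and Benjamini-Hochberg adjustment over 19667 genes, called at 0.05. CPM and RPKM were computed from TMM-scaled library sizes, log2 values with a prior count of 0.5. DESeq2 1.42.0 was an alternative. Scripts were tested on simulated data. Group and sex came from the labels. Both genotypes with the deletion shared a prefix of the animal number, and all 6 Q175 animals another, shared with WT replicate 3 alone. The prefixes entered no fit.

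The members and marker lists were chosen with earlier results of these data known. Named were all members; of the other choroid plexus genes, those called in a genotype or sex contrast and the 4 most abundant; the 2 most abundant of each other list (1 gene of the myelin list is not reported here); and the 10 non-members of smallest p that followed Ttr upward. Of the 5 with the smallest p in the other direction, none was called and the first is given.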

Additional observations from a re-analysis of the deposited data

Results flagged for a closer look

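Within each genotype's 6 libraries, the gap of the highest or lowest library to its neighbour was divided by the group's range and compared with Dixon's 95% critical value for 6 values. Of 36 sets of a member and a genotype, 10 exceeded it. About 1 in 20 would among normally distributed values, and the rate for untransformed CPM was not measured. In Q175, all 9 members exceeded it through the same library, replicate 3. Ttr was at 3793 CPM there, with the next Q175 library at 442. Enpp2 was at 1917 CPM (next 523), Kl at 153 (next 10.3), F5 at 74.3 (next 2.69) and Clic6 at 92.2 (next 19.8). Slc4a5 was at 30.3 CPM (next 1.14), Folr1 at 24.9 (next 3.65), Aqp1 at 20.5 (next 2.58) and Otx2 at 20.5 (next 2.35). In WT, Ttr was at 55.2 CPM in replicate 6, with the next library at 30.7. No member exceeded the value in TyrobpKO or Q175_TyrobpKO. The 9 members share a library, so these are not 9 separate observations. What set that library apart was not tested.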

How the results depend on the processing

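The count of members called in Q175 against WT was 2 with edgeR, which called 9.63% of all genes. It was 0 with no low-count filter, 0 when the 12 WT and Q175 libraries were fitted alone, 0 in males alone and 0 in females alone, 5 without the sex term (9.89% of all genes called), 6 with DESeq2 (11.7%; 1 adjusted p missing) and 7 with DESeq2's outlier filter off (11.7%), which was added after seeing the data. The settings with 0 called 7.09% of all genes (12 libraries), 3.97% (no filter), 3.82% (males) and 0.946% (females). Leaving out each library in turn gave 0 to 6, the last without Q175 replicate 4 (9.12% of all genes called). The count in Q175_TyrobpKO against TyrobpKO was 1 in a fit of its 12 libraries (8.08% of all genes called). It was 0 to 2 on leaving libraries out, where Enpp2 ran from -0.014 to 0.23. In that contrast, males alone gave -0.28 for Enpp2, -0.21 for Folr1 and -0.45 for Otx2. The averaged contrast, added after seeing the data, had 0 calls in males (6.25% of all genes called) and 1 in females (6.05%). It had 4 to 8 on leaving libraries out. Females alone gave Ttr -0.66 in TyrobpKO against WT, 0.95 in Q175_TyrobpKO against Q175 and 1.61 for the interaction. On leaving libraries out, Ttr ran from -1.85 to 0.72 in Q175_TyrobpKO against Q175 and from -0.89 to 0.61 between the sexes, both turning positive without Q175 replicate 3.

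The 109 genes that followed Ttr became 18 to 156 on leaving libraries out, 208 with the summed other 8 members as the covariate, 54 in the 12 carriers and 0 in the 12 other libraries (both added after seeing the data). In the latter 885 genes had an unadjusted p under 0.05 by edgeR, 0 members were called, and the slope of Clic6 was -0.000503. Within WT the correlation with Ttr was -0.287 for Clic6, -0.107 for Otx2 and -0.405 for Aqp1. Adding Ttr took the calls over all genes in Q175 against WT from 1893 to 1096. The causes of these changes were not tested. Aqp1, Slc4a5, Folr1 and Otx2 rested on few reads in most libraries (Aqp1 3 to 24 in WT). No paired analysis was possible because the labels carry no replicate numbers shared between genotypes.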

Other observations

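Of the 82 genes in no list that followed Ttr, 13 are given here. The keratin genes Krt18 (slope 0.64 ± 0.10, adjusted p = 0.000463) and Krt8 (0.42 ± 0.09, adjusted p = 0.0260) encode a pair of filament proteins of simple epithelia. The basement membrane collagen genes Col4a3 (0.36 ± 0.07) and Col4a4 (0.35 ± 0.06) were called too, as was the tight junction gene Cldn1 (0.25 ± 0.06). Of the insulin-like growth factor genes, Igf2 had 0.42 ± 0.09 (adjusted p = 0.0122) and Igfbp2, which encodes a binding protein, had 0.32 ± 0.06 (adjusted p = 0.00433). Lepr, the leptin receptor gene, had 0.24 ± 0.05, and Trpm3, an ion channel gene that lies at 44.8 CPM on average, had 0.24 ± 0.03. In Q175 replicate 3 the level was 16.1-fold the WT median for Krt8, 15.5-fold for Krt18, 12.03-fold for Igf2, 10.4-fold for Igfbp2 and 4.54-fold for Trpm3. Gmnc, a regulator of multiciliated cells, had a slope of 0.46 ± 0.08 and the cilium genes Drc7, Cfap206 and Iqcg had 0.47 ± 0.08, 0.24 ± 0.06 and 0.16 ± 0.03. These genes were named after their values were seen, from a set of mixed roles that was not tested for any theme, and none of the 13 was among the 18 genes called without that library.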
